A study of Saccharomyces cerevisiae with 6 samples.

Results

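The genes described here encode the main enzymes that carry glucose to pyruvate in budding yeast, Saccharomyces cerevisiae. They are HXK2, PGI1, PFK1, PFK2, FBA1, TPI1, TDH3, PGK1, ENO2 and CDC19, 10 of the 5449 genes measured. They were chosen by symbol as the leading enzyme of each step of the pathway, without phosphoglycerate mutase. The rule uses gene names and no measured value, but the set was proposed with earlier results of these data known. Each of the 10 has 1 probe set on the array, so no choice between probe sets was needed. All 10 read above background and were tested among 5402 genes.

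Glycolysis splits glucose into pyruvate and makes ATP without oxygen. In rich glucose medium budding yeast ferments, turning the pyruvate into ethanol even in air while respiration is held back by glucose repression. The glycolytic genes are then among the most heavily transcribed of the cell, driven largely by the activators Gcr1, Gcr2, Rap1 and Tye7. Several steps have paralogs, a major enzyme used on glucose and minor ones used on other carbon sources or under stress.

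The arrays came from 6 log-phase cultures in rich medium (YPD) of the W303 laboratory background, 3 wild type and 3 with RPH1 deleted, numbered 1 to 3 in each group. The deletion strain is called the mutant below. RPH1 encodes a histone demethylase with zinc fingers that acts as a transcriptional repressor, and the comparison asks which genes it regulates in unstressed growth. No source used here says whether cultures of the same number were grown together or how many mutant clones were used. Arrays of the same number are called a pair below.

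RPH1 itself read 305 to 385 on the wild-type arrays and 4.52 to 8.99 on the mutant arrays, so the libraries match their labels (limma adjusted p = 0.00196). The array medians over tested genes ranged from 598.8 to 628.1. Both replicate 1 arrays differ from the other 4 in a spiked control, dap, at 0.0959 and 2.02 against 42.7 to 55.0, and this split is treated as a batch that holds both genotypes. The alpha-cell marker genes were bright in both strains, with summed signals of 13179 to 15510 in wild type and 13732 to 17631 in the mutant over 4 genes. The 5 a-cell markers summed to 307 to 379 in wild type and 253 to 351 in the mutant.

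Fermenting growth was checked with 8 genes that glucose represses. For all but SUC2, the invertase gene, between 87.0% and 97.2% of tested genes read brighter. The summed signal of all 8 was 1209 to 1351 in wild type, 1260 in mutant 1, 1123 in mutant 2 and 1819 in mutant 3. SUC2 alone held 659 to 752 of this sum in wild type and 676, 630 and 646 in mutants 1, 2 and 3. Of these genes, 5 were highest on mutant 3, among them the malate synthase gene MLS1 and the isocitrate lyase gene ICL1 of the glyoxylate cycle. MLS1 read 106 there against 31.1 to 50.1 on the other arrays, and ICL1 read 176 against 90.0 to 109. The others were PCK1, at 324 against 116 to 166, ADH2, at 295 against 59.2 to 152, and FBP1, at 92.7 against 17.9 to 37.8. The lactate permease gene JEN1 read 121, 115 and 117 in the mutant and 132, 81.3 and 85.4 in wild type, so the groups overlapped. The 6 marker genes of cells past the diauxic shift summed to 3284 to 3973 in wild type and 3281 to 4064 in the mutant. HSP12 had the largest part in that sum on each array, at 1226 to 2240, and single markers are given further on.

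HXK2, the hexokinase that predominates on glucose and also takes part in glucose repression, read 5387, 4621 and 4457 on wild-type arrays 1, 2 and 3. The mutant arrays, in the same order here and below, read 5049, 4705 and 4641. PGI1, phosphoglucose isomerase, which makes fructose 6-phosphate, read 6227, 5750 and 5581 in wild type and 6133, 5435 and 5725 in the mutant. In both genes replicate 1 was the brightest array of either strain, and the strains overlapped. PFK1 and PFK2 encode the alpha and beta subunits of phosphofructokinase, the committed step of the pathway. PFK1 read 5476, 4927 and 4514 in wild type and 5029, 4578 and 4687 in the mutant. PFK2 read 6341, 4976 and 4579 in wild type and 5807, 4658 and 4928 in the mutant. Both subunit genes were thus highest on wild type 1 and lowest on wild type 3, with every mutant array in between.

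FBA1, the aldolase that cleaves the hexose, read 7018, 5819 and 4958 in wild type and 6709, 5026 and 5231 in the mutant. TPI1, which interconverts the triose phosphates, read 8619, 7362 and 6254 in wild type and 7862, 6438 and 6587 in the mutant. All mutant values of both genes again fell inside the wild-type range. TDH3, the major glyceraldehyde 3-phosphate dehydrogenase, read 6388, 5331 and 4424 in wild type and 5408, 4560 and 5148 in the mutant. PGK1, phosphoglycerate kinase, where the first ATP of the pathway is made, read 8114, 6614 and 5884 in wild type and 7700, 5989 and 6050 in the mutant. Both ran from wild type 1 through mutant 1, wild type 2, mutant 3 and mutant 2 down to wild type 3. ENO2, the enolase used on glucose, read 7999, 7355 and 6518 in wild type and 7274, 6763 and 6980 in the mutant. CDC19, the pyruvate kinase that makes the last ATP and pyruvate, read 7819, 6485 and 5587 in wild type and 7170, 5741 and 5797 in the mutant. All 10 genes were highest on wild type 1, and 9 were lowest on wild type 3. PGI1 was lowest on mutant 2.

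**Figure D1:**
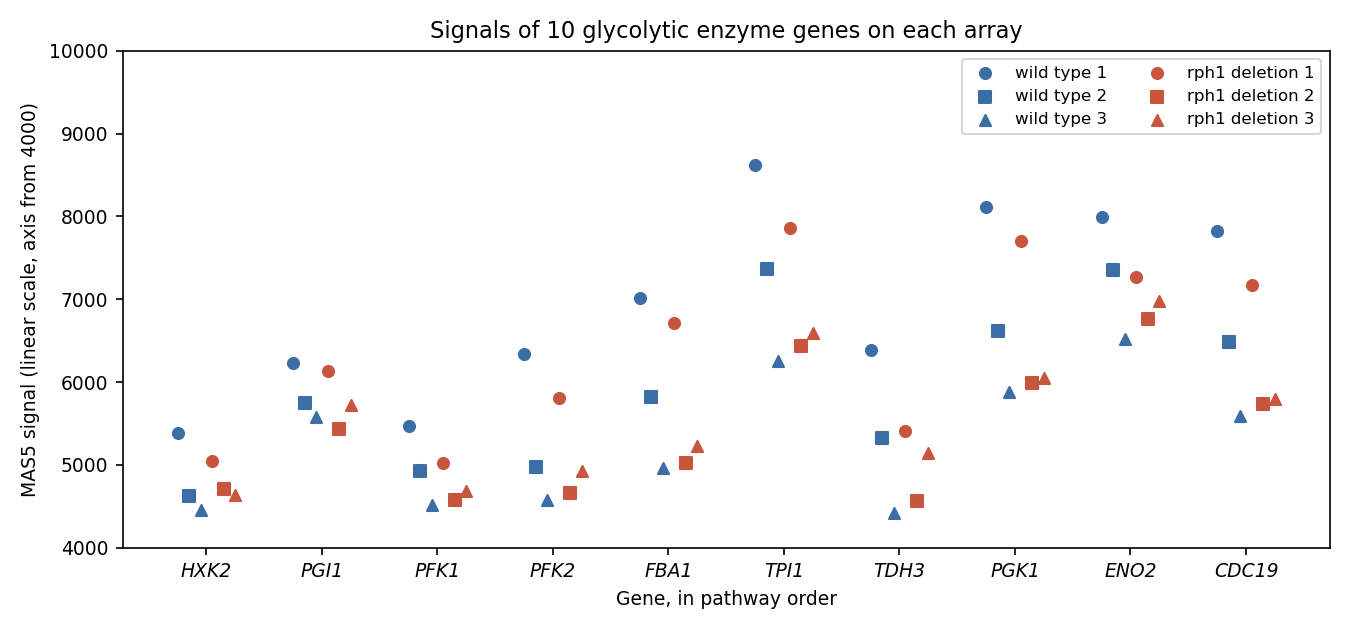
Signal (linear MAS5 scale, axis not starting at 0) of the 10 glycolytic genes in pathway order on each of the 6 arrays. Blue marks wild type, red marks the rph1 deletion, and the marker shape gives the replicate number. Wild type 1 is the highest array for all 10 genes, and the strains overlap in every gene.

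No glycolytic gene passed the genotype comparison. With limma on log2 signals, 0 of 10 had an adjusted p under 0.05, where 0.0370% of all tested genes did, and 0 of 10 had an unadjusted p under 0.05, where 5.33% did. The unadjusted p ran from 0.563 for PFK1 to 0.976 for HXK2, and the limma adjusted p was 1.00 for each. In 0 of the 10 did the strains' arrays fail to overlap, against 10.6% of tested genes. Of the tested genes without overlap, 408 were higher in the mutant and 164 lower. Of those with an unadjusted limma p under 0.05, 234 were higher and 54 lower. Over the groups HXK2 averaged 4821 ± 496 in wild type and 4798 ± 219 in the mutant (SD, n = 3 each). TPI1, with the largest fitted difference, averaged 7412 ± 1183 in wild type and 6963 ± 783 in the mutant (SD, n = 3 each).

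All 10 fitted differences lay below 0, from -0.084 for TPI1 to -0.0030 for HXK2 on the log2 scale, with a median of -0.059, a fold of 0.960. Over all tested genes the median was 0.0012 and 49.6% lay below 0. For the 6 genes from hexokinase to triose phosphate isomerase the median was -0.048, and for the 4 from TDH3 to CDC19 it was -0.071. The direction depended on single arrays. Without wild type 1 the median became 0.046 and all 10 differences lay above 0. Leaving out mutant 2 brought the median to -0.0044, with 5 genes lower and the others higher, and leaving out wild type 3 brought it to -0.15. All 10 stayed lower without wild type 2, without wild type 3 or without mutant 1. After quantile normalization the median was -0.015, with 6 of 10 lower and HXK2, PGI1, PFK2 and ENO2 higher. Median centring gave -0.095 with all 10 lower, and array weights gave -0.086 with 9 lower.

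The 95% intervals give the size of change these arrays leave possible. For FBA1 the interval was widest, from 0.723-fold to 1.26-fold in the mutant relative to wild type (log2 difference -0.066, SE 0.17). For PGI1 it began at 0.856-fold, and for PFK1 it ended at 1.13-fold (log2 difference -0.058, SE 0.096). With the replicate number as a block the intervals narrowed, the lowest bound being 0.779-fold and the highest 1.14-fold, both for TDH3. All 10 intervals held no change in either fit. The block called 0 of the 10 (limma adjusted p = 0.721 to 0.992, smallest unadjusted p = 0.289), against 0.111% of tested genes. The batch term also called 0 (limma adjusted p = 0.681 to 0.989), against 0.629%.

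**Figure D2:**
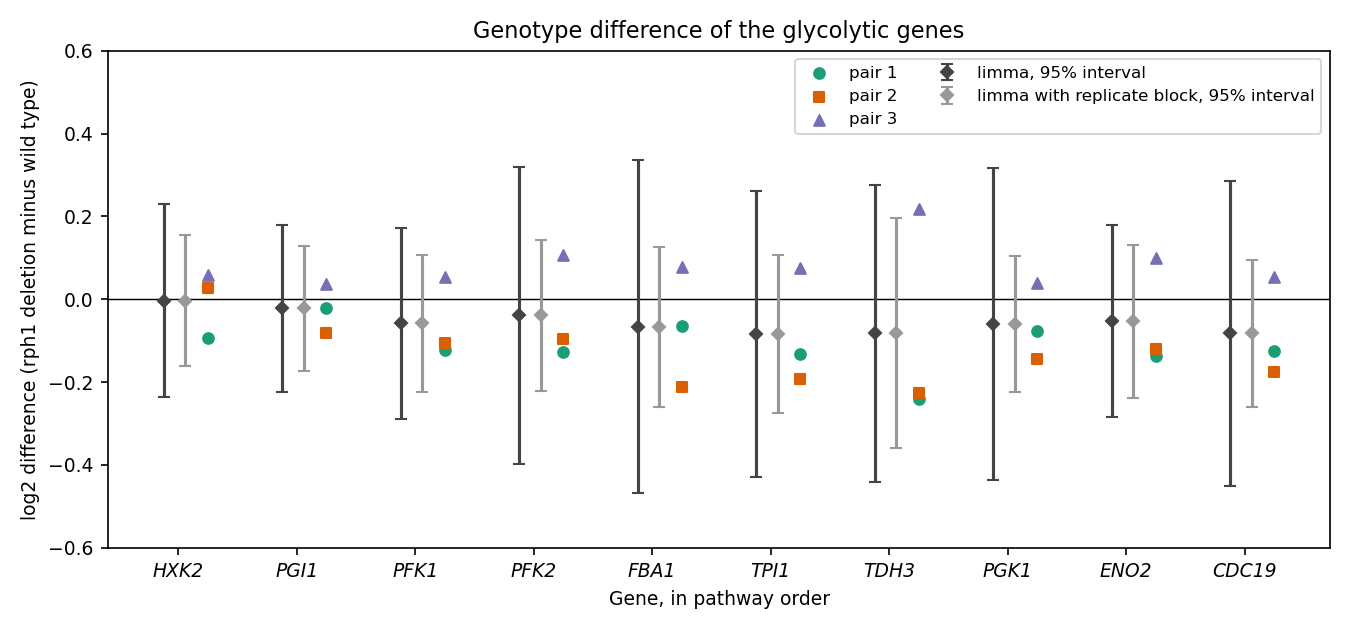
Log2 difference, rph1 deletion minus wild type, for each glycolytic gene. Diamonds are limma estimates with 95% intervals, without and with the replicate block, and coloured points are the differences of the 3 same-numbered pairs. Every interval crosses 0, and pair 3 lies above 0 in all 10 genes while pair 1 lies below.

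Taken pair by pair, as numbered in the labels, the genes moved together in opposite directions. In deviations from group means, wild type 3 correlated more with mutant 2 (0.535) than with mutant 3 (0.415). Pairs 2 and 3 thus rest on the numbering alone. In pair 1 all 10 were lower in the mutant, from -0.24 for TDH3 to -0.022 for PGI1 (log2 difference). In pair 2, 9 were lower, down to -0.23 for TDH3, and HXK2 was higher by 0.026. In pair 3 all 10 were higher, from 0.037 for PGI1 to 0.22 for TDH3. Thus 9 of the 10 were lower in pairs 1 and 2 and higher in pair 3, an order found in 13.3% of tested genes. The member medians were -0.12, -0.13 and 0.067 in pairs 1, 2 and 3. TDH3 was the extreme gene in every pair. In replicates 2 and 3 alone the median of the 10 fitted differences was -0.024, with 8 lower, and in replicates 1 and 2 alone it was -0.12, with all 10 lower. Whether the difference varies between pairs was not tested, since each pair holds 1 array of each strain.

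By raw share, the variation lay between replicate numbers more than between strains. Replicate number has more levels than genotype, so these shares are not on equal terms. Of each gene's variation over the 6 arrays, the replicate number held 57.2% for TDH3 to 93.0% for PGK1, with a median of 86.5%, and the genotype held 0.027% for HXK2 to 9.44% for PFK1, with a median of 4.04%. Over all tested genes the medians were 65.8% and 7.95%. In all 10 glycolytic genes the replicate number held over 50% of the variation, as in 63.6% of tested genes. The brightest array exceeded the dimmest by 1.15-fold for PGI1 and by up to 1.44-fold for TDH3, with a median of 1.38-fold, against 1.29-fold over all tested genes.

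Other bright probe sets were also high on wild type 1 and low on wild type 3. After each gene was centred on its own mean, the mean of the 10 genes stood at 0.23, 0.0059 and -0.16 on wild type 1, 2 and 3 and at 0.12, -0.13 and -0.076 on mutant 1, 2 and 3 (log2 scale). The median of the other 530 genes in the brightest 10% was 0.10, 0.014 and -0.064 in wild type and 0.043, -0.044 and -0.045 in the mutant. The median of all tested genes stayed between -0.012 and 0.023. The range over arrays was 0.39 for the glycolytic genes and 0.17 for the other bright genes. In the brightest 10% without the 10 genes, 77.2% had a fitted difference below 0 and the median was -0.040. Their median pair differences were -0.078, -0.058 and 0.030. Quantile normalization, which gives every array the same distribution, reduced the range of the glycolytic mean to 0.15. The part of array brightness in the pair differences was not tested.

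**Figure D3:**
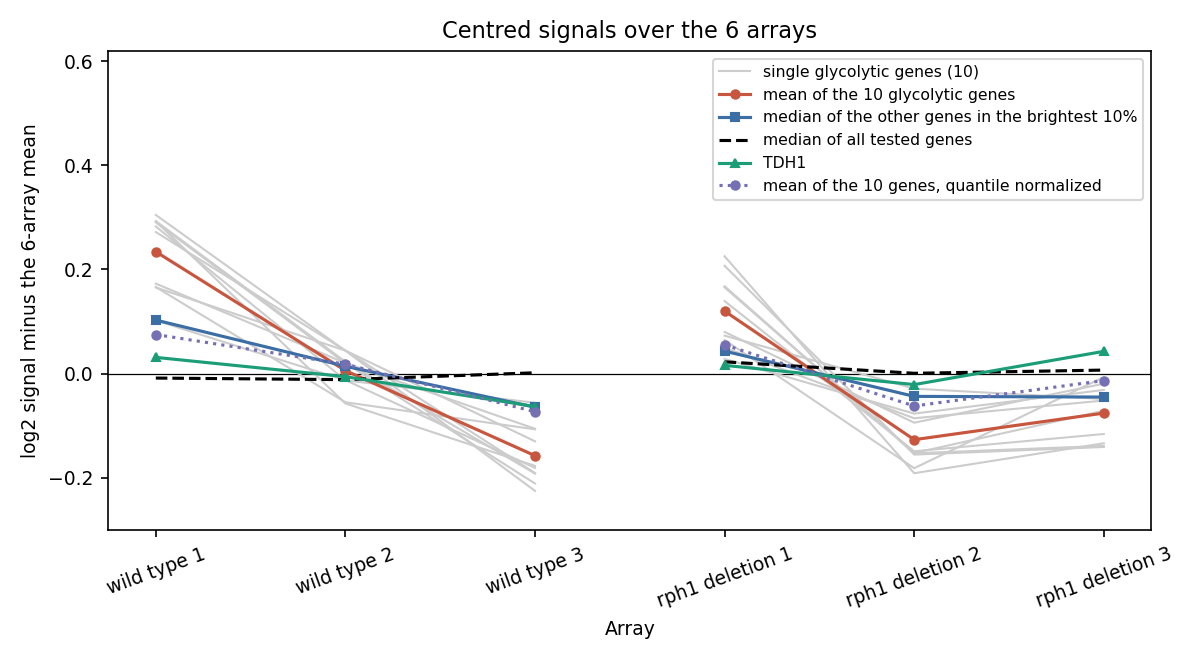
Log2 signal minus each gene's mean over the 6 arrays. Grey lines are the 10 glycolytic genes, red their mean, blue the median of the other 530 genes in the brightest 10%, black all tested genes, green TDH1, and purple the glycolytic mean after quantile normalization. The glycolytic mean runs from 0.23 on wild type 1 to -0.16 on wild type 3, and the bright genes follow with a smaller range.

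**Figure D4:**
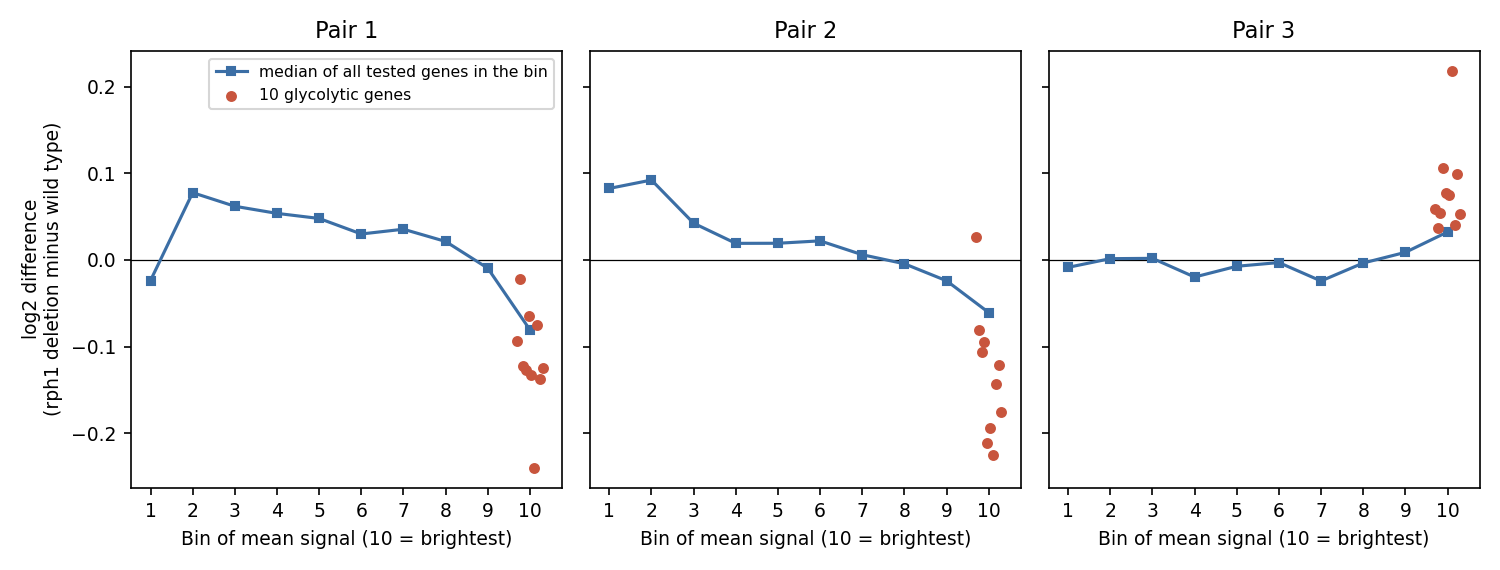
Log2 difference, rph1 deletion minus wild type, in each same-numbered pair. Squares are medians of all tested genes in 10 bins of mean signal, and red points are the 10 glycolytic genes, all in the brightest 10%. In pairs 1 and 2 the brightest 10% has the lowest median, and the glycolytic genes lie mostly below it. In pair 3 they lie above 0.

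All 10 genes sit near the upper end of the scale, where an array can lose proportionality between signal and RNA. By mean signal, 0.389% of tested genes read brighter than TPI1 and 4.26% read brighter than HXK2. On wild type 1 the 10 genes read 57.4% to 91.9% of the highest signal on the array, and on mutant 3 they read 50.1% to 75.4%. These figures describe probe brightness and do not order the transcripts by amount. The files mark no probe set as saturated. Where saturation went unmarked, a true difference could be larger than the one measured. The pooled SD of the 10 genes between arrays of a strain had a median of 0.20 on the log2 scale, from 0.085 for PGI1 to 0.24 for FBA1. The median was 0.11 for the rest of the brightest 10% and 0.14 for all tested genes. This spread includes the differences between replicate numbers, and its bearing on saturation was not tested. The cre hybridisation control, a spiked RNA, had no single order over its 4 probe sets. One 3′ set read 5953, 5704 and 6539 in wild type and 5192, 6251 and 6260 in the mutant, highest on wild type 3, where the glycolytic genes were low. Its 5′ set read 4948, 4436 and 4451 in wild type and 4329, 4483 and 4512 in the mutant, highest on wild type 1 as they were. The other cre sets were both highest on mutant 3, at 3885 and 4417.

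Of the paralogs of the same steps, 5 pairs of a minor and a major gene were compared by their log2 ratio within each array. In none of these was the shift larger than the SD over wild-type arrays. The TDH1 to TDH3 shift, 0.108, was just above the SD over mutant arrays, 0.105. The mutase genes GPM2 and GPM1 were not among these pairs and are described further on. TDH2, another dehydrogenase gene, is not analysed here. TDH1, a dehydrogenase gene linked to slow growth and stress, read 6143, 5988 and 5754 in wild type and 6078, 5925 and 6193 in the mutant. Its pooled SD was 0.041 on the log2 scale, against 0.21 for TDH3, and it was highest on mutant 3. The array's separate control probe sets for TDH1 differed among themselves. The 3′ set read 6169, 5907 and 5716 in wild type and 5997, 5865 and 5999 in the mutant. A middle set marked as able to cross-hybridise read 8303, 7047 and 6477 in wild type and 7132, 6179 and 6563 in the mutant, highest on wild type 1 as TDH3 was. The other middle set read 3489, 3870 and 4396 in wild type and 3504, 4523 and 4214 in the mutant, lowest on wild type 1. The TDH1 3′/5′ signal ratio, a check of RNA integrity, was 1.11 ± 0.039 in wild type and 1.09 ± 0.039 in the mutant (SD, 3 arrays each, 2-sided exact permutation p = 0.7). The same ratio for ACT1, the actin gene, was 1.20, 1.11 and 1.02 in wild type and 1.10, 0.999 and 1.06 in the mutant (2-sided exact permutation p = 0.4). It was highest on wild type 1 and lowest on mutant 2 and wild type 3, arrays where the glycolytic mean was high and low in turn, and its part in the glycolytic values was not tested.

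The balance of these 5 pairs within each array was measured as the log2 ratio of the minor to the major gene. The change from wild type to the mutant was 0.11 for TDH1 to TDH3, 0.15 for PYK2 to CDC19, 0.014 for ENO1 to ENO2, 0.0044 for GLK1 to HXK2 and 0.0025 for HXK1 to HXK2. The exact permutation p was 0.6, 0.6, 0.7, 1 and 1 (2-sided, 3 arrays against 3, smallest possible 0.1), and 1 for each after adjustment over the 5. HXK1, the hexokinase of other carbon sources, averaged 1856 ± 312 in wild type and 1889 ± 564 in the mutant. GLK1, glucokinase, averaged 2864 ± 576 and 2840 ± 286. ENO1, the enolase favoured on non-fermentable carbon, averaged 6459 ± 1160 and 6254 ± 818. PYK2, the pyruvate kinase repressed by glucose, averaged 618 ± 32 and 648 ± 37 (SD, n = 3 each throughout).

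Of the 9 other glycolytic enzyme genes measured, 0 passed limma over all tested genes and 1 had an unadjusted p under 0.05. That gene was GPM2, a homolog of phosphoglycerate mutase that is held to be non-functional in the pathway. It read 276, 191 and 196 in wild type and 519, 350 and 327 in the mutant, higher in all 3 pairs and without overlap. Its log2 difference of 0.84 (SE 0.22) did not pass (limma adjusted p = 0.453). With the replicate block it did (limma adjusted p = 0.0399), and also with the batch term (0.0106) and with array weights (0.0428). GPM1, the working mutase, read 7814, 6168 and 5540 in wild type and 7576, 5551 and 5702 in the mutant, with a log2 difference of -0.052 (SE 0.17), and ran in the array order of TDH3 and PGK1. Within each array the log2 ratio of GPM2 to GPM1 was -4.82, -5.01 and -4.82 in wild type and -3.87, -3.99 and -4.13 in the mutant, without overlap and 0.89 higher on average in the mutant. This ratio was added after the values were seen and was not tested. GPM3, another mutase homolog, differed by -0.089 (SE 0.22). EMI2, a glucokinase-related gene, differed by 0.14 (SE 0.24) and was higher in the mutant in all 3 pairs, by 0.12, 0.18 and 0.11. How often tested genes keep the same sign in all 3 pairs was not counted, here or for the genes below. The list's median was 0.0014, beside 0.0012 for all tested genes.

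Ethanol fermentation genes gave 0 calls among 7 measured with limma, and 0 had an unadjusted p under 0.05. The median was -0.061. PDC1, the main pyruvate decarboxylase, differed by -0.058 (SE 0.15), and ADH1, the alcohol dehydrogenase that makes ethanol, by -0.064 (SE 0.13). PDC1 read 7374, 6004 and 5191 in wild type and 6683, 5349 and 5703 in the mutant, the order of arrays seen in TDH3 and PGK1. ADH3, the mitochondrial enzyme, differed by -0.055 (SE 0.097), ADH4 by 0.011 (SE 0.18) and ADH5 by -0.061 (SE 0.17). PDC5, a minor decarboxylase that is induced when PDC1 is lost, differed by -0.30 (SE 0.19), and PDC6 by -0.16 (SE 0.38). The PDC5 value came from pair 3, at 932 in wild type 3 and 491 in mutant 3, while pairs 1 and 2 differed by -0.0059 and 0.019 on the log2 scale.

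The branches of glycolysis gave no call either. In the glycerol branch, 0 of 4 genes passed limma, and 1 reached an unadjusted p under 0.05. The gene was GPP2, a glycerol 3-phosphatase, at 2168, 2051 and 2056 in wild type and 2814, 2402 and 2475 in the mutant. Its log2 difference was 0.29 (SE 0.087, limma adjusted p = 0.560, or 0.157 with the block). The groups did not overlap, as in 10.6% of tested genes, most of them higher in the mutant. GPD1, the glycerol 3-phosphate dehydrogenase of osmotic stress, read 3179, 2236 and 2004 in wild type and 3648, 2948 and 2886 in the mutant, differing by 0.37 on the log2 scale (SE 0.19, limma adjusted p = 1.00). This gene was higher in the mutant in every pair, though the groups overlapped. GPP1, the major phosphatase, differed by -0.097 (SE 0.12) and followed the glycolytic genes in being highest on wild type 1.

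In the pentose phosphate pathway, which draws glucose 6-phosphate off to make NADPH and ribose, 0 of 11 genes passed limma and 1 had an unadjusted p under 0.05. NQM1, a paralog of the transaldolase gene TAL1, read 202, 118 and 159 in wild type and 304, 256 and 233 in the mutant. Its log2 difference was 0.75 (SE 0.21, limma adjusted p = 0.487, or 0.124 with the block). TAL1 itself differed by -0.065 (SE 0.12). GND2, the minor 6-phosphogluconate dehydrogenase, differed by 0.13 (SE 0.084). The enzymes that make and break fructose 2,6-bisphosphate, the activator of phosphofructokinase, gave 0 calls of 3 with limma and 0 at an unadjusted p under 0.05. PFK26 differed by -0.095 (SE 0.083), PFK27 by -0.0081 (SE 0.21) and the phosphatase FBP26 by 0.070 (SE 0.16).

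Of the 5 measured activators of glycolytic genes, 0 passed limma and 0 had an unadjusted p under 0.05. RAP1, which also serves ribosomal protein genes and telomeres, differed by 0.080 (SE 0.074). TYE7, a basic helix-loop-helix activator, differed by 0.16 (SE 0.16) and was higher in the mutant in all 3 pairs, by 0.12, 0.10 and 0.25. PDC2, needed for PDC1 and PDC5 transcription, differed by -0.049 (SE 0.074). The list's median log2 difference was 0.033.

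**Figure D5:**
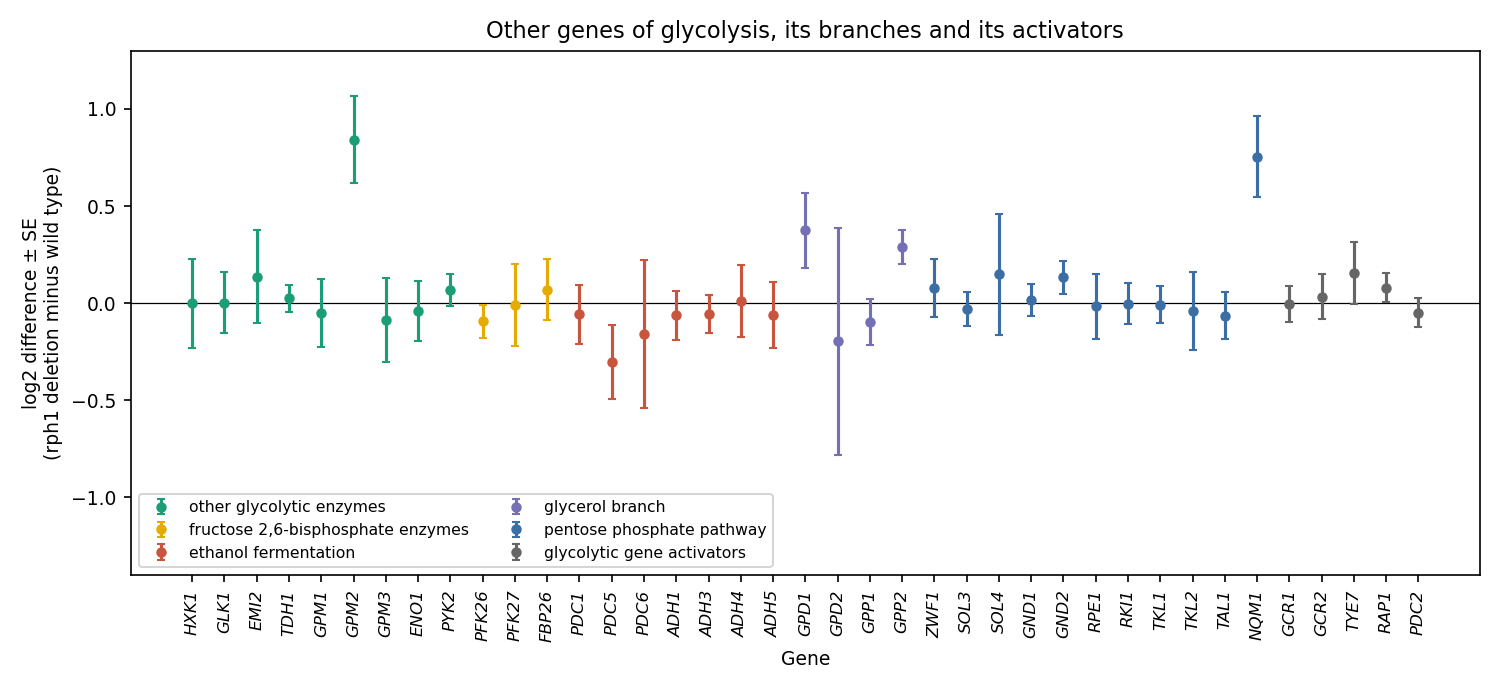
Log2 difference, rph1 deletion minus wild type, with its SE from limma, for the other genes of glycolysis, its branches and its activators, coloured by list. GPM2, at 0.84, and NQM1, at 0.75, stand highest, and no gene passes over all tested genes.

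Among the markers of other growth states, SPG4, a stationary-phase gene, read 106, 60.0 and 49.4 in wild type and 172, 127 and 210 in the mutant (log2 difference 1.29, SE 0.32, limma adjusted p = 0.435). The chaperone gene HSP26 differed by 0.44 (SE 0.27) and was higher in the mutant in all 3 pairs. The catalase gene CTT1, named after its values were seen, differed by 0.55 (SE 0.54) and by 0.65, 0.70 and 0.29 in pairs 1, 2 and 3. The membrane stress gene HSP12 differed by -0.30 (SE 0.21) and was lower in the mutant in all 3 pairs. SNZ1 differed by -0.18 (SE 0.39) and SSA3 by -0.064 (SE 0.18). By fitted difference 3 markers were higher and 3 lower, so these markers did not share a direction. Of the 6 post-diauxic markers 0 passed limma and 1, SPG4, had an unadjusted p under 0.05. In bulk cultures such as these, fewer cells in a state and less RNA per cell cannot be told apart. The part of these states in the glycolytic values was not tested.

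The genes whose centred profile over the 6 arrays lay nearest to the mean of the 10 glycolytic genes were found by root mean square distance on the log2 scale. They were RPP2B (0.011), encoding a ribosomal stalk protein, TIM13 (0.014), of mitochondrial protein import, NPL3 (0.015), an RNA-binding protein, ABZ1 (0.015), an enzyme of para-aminobenzoate synthesis, and RPL24B (0.015), a ribosomal protein gene. The median distance of tested genes was 0.18. The 10 glycolytic genes themselves lay 0.033 (TPI1) to 0.075 (PGI1) from their own mean. The 5 genes lay closer by choice, as the nearest of all other tested genes. Of the 5, RPP2B, NPL3 and RPL24B were in the brightest 10%, and for ABZ1 54.6% of tested genes read brighter. As selected genes, the 5 do not show how common the profile is. In 10 bins of mean signal, the brightest had median centred signals of 0.11 on wild type 1 and -0.066 on wild type 3. Bin 5, which holds ABZ1, had -0.041 and 0.018. The same 6 arrays and the same batch lie behind every such distance.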

How the data were processed

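RNA from 6 cultures was measured on an Affymetrix array, 3 arrays a group. The authors deposited 1 signal intensity for each probe set, linear and made with MAS5, per the submitters' processing notes. No source used here names its version or scaling target. The mean after trimming 2% at each end was 500.2 on every array, so values were used as deposited. This scaling removes any change in total mRNA. Of 10928 probe sets, 5498 were assigned through gene IDs to 5449 S. cerevisiae genes (RefSeq table, R64, names only, no coordinates since the files name no build). The brightest probe set was kept per gene. Background was the 95th percentile of the mean log2 signals of 1746 fission yeast probe sets, 3.06, a signal of 8.32, and 5402 genes above it were tested. No sequences were used here.

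Genotypes were compared on log2 signals with limma 3.58.1 under R 4.3.3 (lmFit, eBayes, no covariate, 2-sided, Benjamini-Hochberg over 5402 genes, threshold 0.05), checked on simulated data. Single values were compared by exact permutation tests (scipy 1.17.1), and figures drawn with matplotlib 3.10.9. Deviations from group means correlated at 0.768, 0.454 and 0.415 between same-numbered arrays, each over 0.1. Pair differences and the block fit use the replicate number, while the main fit and the permutation tests hold no pairing. Wild type 3 correlated more with deletion 2 (0.535), and wild type 2 with deletion 3 (0.471). The pairing thus comes mainly from replicate 1, and these values do not match arrays 2 and 3 by number. Labels call the samples replicates, and p-values measure the spread between these arrays, whose number limits precision. Members and lists were chosen with earlier results of these data known. Named genes are the 10 members, all other glycolytic and fermentation genes, up to 3 of smallest p per further list, RPH1, and the 5 nearest profiles. Mating-type markers are given by their sums only. SUC2, CTT1, SNZ1, SSA3, PCK1, ADH2 and FBP1 were named after their values were seen.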

Additional observations from a re-analysis of the deposited data

How the results depend on the processing

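The number of glycolytic genes past the threshold was 0 under each of the 17 alternatives run, and with the replicate block too it was 0. Their median log2 difference was -0.059 with the block, as without it, and lay between -0.15 and 0.046 with 1 array removed at a time. The block brought GPM2 past the threshold and changed no other call among the genes named. Array weights also called NQM1 (0.90, limma adjusted p = 0.0486). RPH1 lost its call in replicates 1 and 2 alone (-5.77, limma adjusted p = 0.147). It kept its call in replicates 2 and 3 alone (-5.45, limma adjusted p = 9.84e-05), which fit as many arrays. The other changes are of sign only, in differences that passed in no setting, and the cause was not tested. Quantile normalization gave log2 differences of 0.036 for HXK2, 0.0069 for PGI1, 0.0018 for PFK2, 0.0055 for ENO2, 0.011 for HXK1, 0.0021 for ENO1 and -0.0026 for ADH4. It gave changes in balance of -0.025 for HXK1 to HXK2, -0.010 for GLK1 to HXK2 and -0.0035 for ENO1 to ENO2. Replicates 2 and 3 alone gave 0.042 for HXK2, 0.0054 for PFK2, 0.030 for ADH5, 0.051 for PFK27 and -0.18 for the balance of HXK1 to HXK2. Replicates 1 and 2 alone, a setting chosen after seeing the data, gave -0.075 for GLK1, -0.015 for TDH1, 0.0064 for PDC5, 0.11 for PDC6, -0.11 for ADH4 and -0.037 for MLS1. Median centring gave -0.035 for GLK1, -0.011 for TDH1 and -0.025 for ADH4, and array weights gave 0.016 for HXK2 and 0.070 for PFK27.

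Leaving out single arrays moved the glycolytic differences over these ranges: HXK2 -0.057 to 0.079, PGI1 -0.068 to 0.023, PFK1 -0.13 to 0.014, PFK2 -0.14 to 0.098, FBA1 -0.20 to 0.062, TPI1 -0.20 to 0.031, TDH3 -0.22 to 0.049, PGK1 -0.18 to 0.067, ENO2 -0.13 to 0.016 and CDC19 -0.20 to 0.043. The other genes that changed sign ranged as follows: HXK1 -0.23 to 0.15, GLK1 -0.11 to 0.16, EMI2 -0.068 to 0.35, TDH1 -0.00013 to 0.047, GPM1 -0.19 to 0.088, GPM3 -0.28 to 0.077, ENO1 -0.14 to 0.10, PDC1 -0.18 to 0.076, PDC6 -0.38 to 0.22, ADH1 -0.16 to 0.026, ADH4 -0.14 to 0.20 and ADH5 -0.16 to 0.12. In the branches and nearest profiles the ranges were FBP26 -0.077 to 0.17, PFK27 -0.15 to 0.20, TAL1 -0.16 to 0.038, RPP2B -0.16 to 0.048, TIM13 -0.14 to 0.035, NPL3 -0.17 to 0.044, ABZ1 -0.17 to 0.030 and RPL24B -0.15 to 0.029. The paralog balances ranged from -0.19 to 0.14 for HXK1 to HXK2, -0.049 to 0.080 for GLK1 to HXK2, -0.0023 to 0.22 for TDH1 to TDH3, -0.064 to 0.084 for ENO1 to ENO2 and -0.018 to 0.30 for PYK2 to CDC19.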
